A study of Mus musculus with 28 samples.

Results

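The 6 genes described here are Myc, Mycn, Mycl, Max, Mnt and Mga. They encode the MYC-type transcription factors of the mouse, their partner MAX, and other proteins that pair with MAX. The genes were taken by symbol from the 30386 genes of the deposited expression table, and all 6 were found. MYC, MYCN and MYCL are basic helix-loop-helix leucine zipper proteins that bind E-box DNA only as dimers with MAX and raise the transcription of genes for ribosome assembly, nucleotide and polyamine synthesis and cell growth. MNT and MGA also pair with MAX: MNT recruits SIN3 corepressors to the same sites, and MGA holds MAX in PRC1.6, a variant Polycomb complex that keeps germ cell genes silent in mouse embryonic stem (ES) cells. In naive ES cells the MYC proteins are known for sustaining growth and metabolism, and embryonic stem cells deprived of MYC activity enter a reversible dormant state.

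The series measured 3′ digital gene expression, which sequences the ends of polyadenylated RNA, in 28 libraries of E14 cells, a mouse ES cell line derived from the blastocyst. Cells of all groups were grown on gelatin in N2B27, a serum-free medium. The name 2iL stands for CHIR99021, an inhibitor of GSK3 that activates WNT signalling, PD0325901, an inhibitor of MEK that blocks ERK signalling, and the cytokine LIF. There were 7 groups of 4 libraries. In the groups 48 h + 2iL and 96 h + 2iL, cells had been withdrawn for 48 or 96 h and then received 2iL again for 24 h. The withdrawal series ran from cells kept in 2iL through 24, 48, 96 and 120 h without it. Each of 4 experiments, numbered in the sample titles, supplied 1 library of every group. Apart from this number, the labels do not say how replicates differ, so p-values measure the spread between these libraries. No group collected 72 h after withdrawal was analysed here, so 48 h + 2iL against 48 h also holds 24 h of further culture. For 96 h + 2iL, the time-matched group is 120 h, a group named in the titles, while the treatment text of the labels lists no withdrawal beyond 96 h.

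Total gene counts were 1554830 to 2828694 per library. Changes below are log2 fold changes ± SE from 1 edgeR quasi-likelihood fit to all 28 libraries, levels are CPM, counts scaled to a common library total, after TMM scaling, and a gene was called where its Benjamini-Hochberg adjusted p over 11080 tested genes was under 0.05. The words rose and fell are used for such calls. Per-library values are in the order of experiments 1 to 4. Myc did not pass the filter on low counts, which left 5 of the 6 members in the test. The labelled cell state was checked by summed CPM of marker genes. The 8 naive markers summed to 1783 to 2063 CPM in 2iL, 742.6 to 881.7 at 24 h, 196.4 to 348.7 at 48 h, 60.3 to 123.7 at 96 h and 51.0 to 65.7 at 120 h. They reached 963.8 to 1262 CPM in 48 h + 2iL and 67.8 to 395 in 96 h + 2iL. The 6 formative epiblast markers summed to 140.1 to 228.6 CPM in 2iL and 2126 to 2699 CPM at 48 h. They summed to 1275 to 2544 CPM at 96 h, which overlapped with 48 h, and to 610.2 to 1468 CPM at 120 h. The 6 neural progenitor markers, at 3.37 to 9.62 CPM in 2iL, reached 154.7 to 539.9 CPM at 120 h. Primitive endoderm markers stayed at 19.1 CPM or less in every library and trophoblast markers at 148.4 CPM or less, the highest in 96 h + 2iL. Of the 6 trophoblast markers, only Cdx2 and Eomes were tested. In 96 h + 2iL against 120 h, Cdx2 rose (adjusted p = 0.0017) and Eomes fell (adjusted p = 0.0101). Against 96 h, Cdx2 rose by 7.11 ± 0.70 (adjusted p = 7.09e-08), and Eomes differed by -1.54 ± 0.62 (adjusted p = 0.119). The sum therefore does not stand for both genes, and the presence of trophoblast cells was not tested. The 8 fibroblast markers, among them Col1a1 and Col1a2, had counts in every group and summed to 96.9 to 434 CPM over all libraries, with ranges that overlapped between all groups, although the labels name gelatin and no feeder cells. Their part in the members' levels was not tested. In these bulk samples, fewer cells of a type and less RNA per cell cannot be told apart.

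The sequences below show how far the 3 MYC-type genes could be confused with each other in counting. Between the GENCODE M21 transcripts of Mycn and Mycl, the longest identical stretch was 23 bases, in the coding part of both, in the region known as MYC box II. Between Myc and Mycl it was 21 bases, also coding, in the region of MYC box I.
Mycn and Mycl: gactgcatgtggagcggcttctc
Myc and Mycl: atctggaagaaattcgagctg
The first ended 1937 bases before the 3′ end of Mycn and 2778 before that of Mycl, and the second 1597 bases before the end of Myc and 2972 before that of Mycl. A search of the last 500 bases of each member, where this assay reads, found no other annotated transcript with at least 50 bases at 90% identity or more for Myc, Mycn, Mycl, Mnt or Mga. For Max it found 3 such matches, Gm3816 (91.1% over 101 bases), Gm45596 (90% over 100 bases) and Gm7786 (90.2% over 102 bases). Counts of Max are therefore less certain than those of the others.

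Promoters are shown for Mycn and Mycl, the tested MYC-type genes, and for Max, the partner they share, from 250 bases before to 50 after the annotated start (RefSeq, GRCm38.p6; 5 of the 6 members had an entry). Capitals mark matches, on either strand, to 4 short motifs: the E-box CACGTG bound by MYC and MAX dimers, the TCF/LEF core CTTTGA of WNT signalling, the STAT motif TTCNNNGAA of LIF signalling, and the letters GCGGGA of E2F6-type sites.
Mycn, chr12:12941787-12942086, minus strand: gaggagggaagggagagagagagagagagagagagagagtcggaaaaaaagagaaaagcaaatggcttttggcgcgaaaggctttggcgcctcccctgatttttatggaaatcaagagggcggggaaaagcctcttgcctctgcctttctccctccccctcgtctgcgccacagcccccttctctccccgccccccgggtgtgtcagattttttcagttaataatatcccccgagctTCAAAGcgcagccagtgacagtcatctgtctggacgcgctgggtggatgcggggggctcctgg
Mycl, chr4:122995681-122995980, plus strand: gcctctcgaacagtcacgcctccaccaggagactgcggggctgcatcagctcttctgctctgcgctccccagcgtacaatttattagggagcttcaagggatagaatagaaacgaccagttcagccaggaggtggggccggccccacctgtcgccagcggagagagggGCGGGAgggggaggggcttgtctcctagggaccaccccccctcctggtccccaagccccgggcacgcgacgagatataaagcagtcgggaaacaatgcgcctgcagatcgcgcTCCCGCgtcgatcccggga
Max, chr12:76962199-76962498, minus strand: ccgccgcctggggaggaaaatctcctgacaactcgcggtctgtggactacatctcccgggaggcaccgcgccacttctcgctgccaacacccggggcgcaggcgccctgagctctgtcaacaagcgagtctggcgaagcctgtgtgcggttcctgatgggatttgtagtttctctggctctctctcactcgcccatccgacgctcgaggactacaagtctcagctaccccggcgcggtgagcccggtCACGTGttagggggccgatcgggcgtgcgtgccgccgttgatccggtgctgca
Mycn held 1 match, a TCF/LEF core starting 13 bases before the start site, a motif found in 16.2% of the promoters of 27025 genes. Mycl held 2 E2F6-type matches, a motif in 20.02% of promoters. Max held an E-box 3 bases before its start, as 7.24% of promoters did, and the promoter of Mnt held an E-box and an E2F6-type match. The Mga promoter window held none of the 4 motifs, and the STAT motif, in 8.47% of all promoters, was in none of the 5 windows. The motifs did not overlap in these promoters. Matches are descriptions of letters and do not show binding.

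The count of members called is set here beside the share of all tested genes called in the same comparison. At 24 h against 2iL 1 of 5 tested members was called, beside 16% of all tested genes, and at 48 h against 2iL it was 1 of 5 beside 27.8%. At 96 h against 2iL 4 of 5 were called beside 41.1%, and at 120 h against 2iL 3 of 5 beside 47.3%. Between successive times, 2 of 5 were called at 96 h against 48 h beside 21.5% of genes. Counts of 0 of 5 were found at 48 h against 24 h, beside 6.57% of genes, and at 120 h against 96 h, beside 1.14%. On the return of 2iL, 1 of 5 was called in 48 h + 2iL against 48 h beside 14.9% of genes, and 1 of 5 in 96 h + 2iL against 96 h beside 9.24%. Against cells kept in 2iL, 1 of 5 was called in 48 h + 2iL beside 11.6% of genes and 3 of 5 in 96 h + 2iL beside 41%. In 96 h + 2iL against 120 h, 0 of 5 were called beside 2.63% of genes, and 0 of 5 had a response to 2iL that differed by starting point (96 h minus 48 h), beside 0.921%. Among these comparisons with a count of 0 in edgeR, an unadjusted p under 0.05 was reached by 2 members (Mycn and Mycl) at 120 h against 96 h and by 0 members in the other 3, and DESeq2 also called 0 in all 4.

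The libraries of both groups did not overlap for 1 of the 5 tested members at 24 h against 2iL (Mycn), beside 16.4% of all tested genes. At 48 h against 2iL this held for 2 members (Mycn and Mycl) beside 27.9% of genes, at 96 h for 3 (Mycn, Max and Mga) beside 36.5%, and at 120 h for 3 (Mycl, Max and Mga) beside 41.9%. Between 96 h and 48 h it held for 2 (Mycn and Mga) beside 24.7%. After the return of 2iL it held for 1 (Mycn) in 48 h + 2iL against 48 h beside 21.1%, and for 2 (Mycn and Mnt) in 96 h + 2iL against 96 h beside 13.1%. Against cells kept in 2iL it held for 1 (Mycn) in 48 h + 2iL beside 16.8% and for 1 (Max) in 96 h + 2iL beside 35.8%. All 5 members overlapped at 48 h against 24 h, at 120 h against 96 h and in 96 h + 2iL against 120 h, where 12%, 7.51% and 6.75% of tested genes had no overlap.

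**Figure D1:**
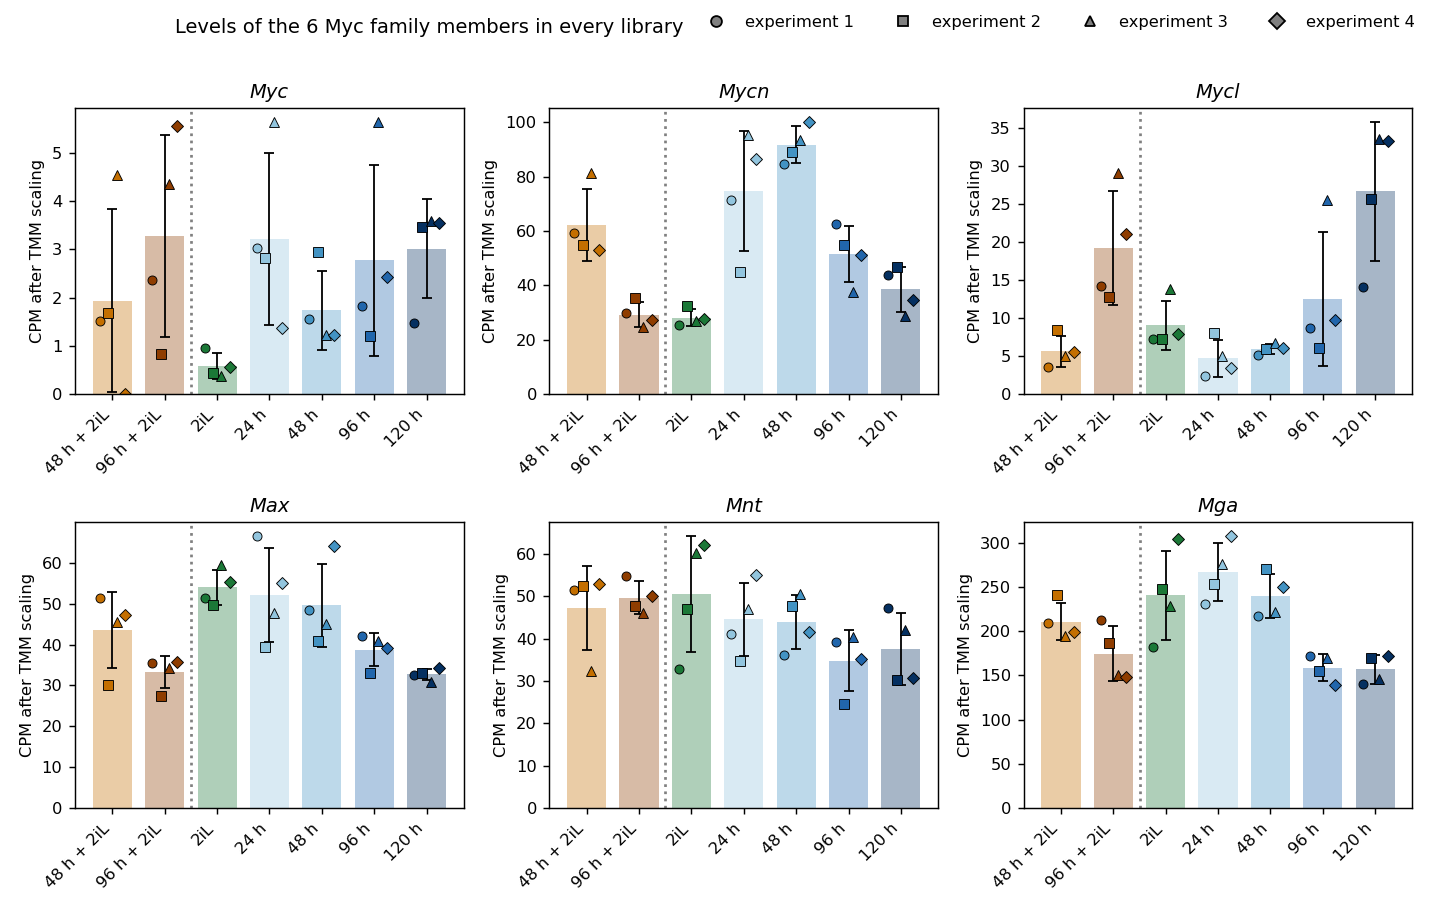
CPM after TMM scaling (y axis, linear, a separate range for each gene) of the 6 members in the 7 groups (x axis). Points are libraries, with a marker for each experiment, bars are means and error bars SD (n = 4); Mycn is highest at 48 h (84.7 to 100.2 CPM) and Mycl at 120 h (14.1 to 33.6 CPM), while Max and Mga are lowest at 120 h on average.

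Mycn, on chromosome 12 (GRCm38, 12936093 to 12941914, minus strand), was the tested member called at 24 and 48 h against 2iL. Its change at 48 h was the largest of the 5 tested members in any comparison made, although the group means of Mycl, from 4.72 CPM at 24 h to 26.7 CPM at 120 h, lay 5.65-fold apart and those of Mycn 3.26-fold. It encodes N-MYC, the MYC-type protein known for its roles in embryonic and neural progenitors. Its level was 25.5, 32.5, 26.9 and 27.7 CPM in the libraries of 2iL and 71.4, 45.1, 95.4 and 86.7 CPM at 24 h. At 48 h it was 84.7, 89.0, 93.6 and 100.2 CPM. It was 62.5, 54.7, 37.8 and 51.2 CPM at 96 h, and 43.8, 47.0, 28.7 and 34.6 CPM at 120 h. Every library at 24, 48 and 96 h lay above every library of 2iL, whereas those at 120 h overlapped with 2iL. Relative to 2iL, Mycn rose by 1.39 ± 0.20 at 24 h (adjusted p = 7.76e-06), by 1.70 ± 0.20 at 48 h (adjusted p = 6.88e-08) and by 0.87 ± 0.20 at 96 h (adjusted p = 0.000791). At 120 h the difference was 0.45 ± 0.21 (adjusted p = 0.0721), with 4 of 4 experiments higher than 2iL. Scaling by library totals brought it to 0.57 (adjusted p = 0.0233), leaving out the 24 h library of experiment 2 to 0.47 (adjusted p = 0.0351) and leaving out the 120 h library of experiment 3 to 0.57 (adjusted p = 0.0321).

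The decline of Mycn after 48 h was itself called. At 96 h it fell by 0.83 ± 0.19 against 48 h (adjusted p = 0.00194), in 4 of 4 experiments and with no overlap of the libraries. The steps on either side were not called: 48 h against 24 h differed by 0.31 ± 0.19 (adjusted p = 0.409), and 120 h against 96 h by -0.42 ± 0.20 (adjusted p = 0.289). In the order of mean levels, 48 h came first, followed by 24 h, 48 h + 2iL, 96 h, 120 h, 96 h + 2iL and 2iL, and the libraries of each neighbouring pair in this order overlapped.

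Mycn was lower after the return of 2iL at both starting points, and the levels reached lay apart. In 48 h + 2iL the libraries had 59.4, 54.9, 81.6 and 52.9 CPM, all below the lowest at 48 h (84.7 CPM) and all above the highest in 2iL (32.5 CPM). The libraries of 96 h + 2iL had 29.8, 35.3, 24.7 and 27.2 CPM, below every library at 96 h, with 2 libraries within the range of 2iL, 1 above it and 1 below it. Mycn fell by 0.81 ± 0.20 in 96 h + 2iL against 96 h (adjusted p = 0.00887) and by 0.56 ± 0.19 in 48 h + 2iL against 48 h (adjusted p = 0.043). The second call was near the threshold. It was lost on scaling by library totals (adjusted p = 0.0633), without the filter on low counts (adjusted p = 0.0659) and in 14 of the 28 fits that left out 1 library, where the adjusted p reached 0.137 without the 48 h + 2iL library of experiment 4. Against cells kept in 2iL, Mycn was still higher by 1.14 ± 0.20 in 48 h + 2iL (adjusted p = 0.000233), and differed by 0.06 ± 0.21 in 96 h + 2iL (adjusted p = 0.849). The responses to 2iL after 96 and 48 h differed by -0.25 ± 0.28 (adjusted p = 0.816). Against the time-matched 120 h, Mycn in 96 h + 2iL differed by -0.39 ± 0.21 (adjusted p = 0.447), with 4 of 4 experiments lower.

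Mycl, on chromosome 4 (122995652 to 123002485, plus strand), followed another course. It encodes L-MYC, a MYC-type protein with weaker transforming activity than c-MYC, found in the developing nervous system among other tissues. Its counts were low, 4 to 75 per library. It had 7.22, 7.27, 13.8 and 7.91 CPM in 2iL, 2.42, 7.99, 5.02 and 3.44 CPM at 24 h, and 5.16, 5.90, 6.69 and 6.11 CPM at 48 h. It had 8.67, 6.04, 25.6 and 9.68 CPM at 96 h, and 14.1, 25.7, 33.6 and 33.3 CPM at 120 h. All 4 libraries at 120 h exceeded the highest in 2iL, and the 96 h library of experiment 3 was the highest of its group. Mycl rose by 1.53 ± 0.38 at 120 h against 2iL (adjusted p = 0.00108). The differences at 24 h (-0.91 ± 0.45, adjusted p = 0.179), 48 h (-0.62 ± 0.43, adjusted p = 0.313) and 96 h (0.44 ± 0.39, adjusted p = 0.391) were not called, and that at 96 h turned to -0.18 (adjusted p = 0.76) without the 96 h library of experiment 3. From 24 to 48 h Mycl differed by 0.29 ± 0.48 (adjusted p = 0.815). At 48 h all libraries were nevertheless below the lowest in 2iL, as those of 27.9% of tested genes did not overlap in this comparison.

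The late steps of Mycl depended on single libraries, among them that of experiment 3 at 96 h, and on the scaling, the filter and the model. At 96 h against 48 h the difference was 1.06 ± 0.42 (adjusted p = 0.0675) and at 120 h against 96 h it was 1.09 ± 0.36 (adjusted p = 0.11), each with 4 of 4 experiments in the same direction. With the experiment as a block these became 0.96 (adjusted p = 0.0444) and 1.14 (adjusted p = 0.0233). Without the filter, both were called (adjusted p = 0.0394 and 0.0347). The step at 96 h was also called on scaling by library totals (adjusted p = 0.0473). It was called too without the 96 h libraries of experiments 1 (adjusted p = 0.0486) or 2 (adjusted p = 0.0256). Leaving out the 120 h library of experiment 1 gave a call at 120 h (adjusted p = 0.0406). Without the 96 h library of experiment 3, the step at 120 h was 1.70 (adjusted p = 0.00355) and that at 96 h was 0.45 (adjusted p = 0.515). That library also had the highest sum of 6 neural progenitor markers at 96 h, 278.6 CPM, against 53.0, 54.7 and 83.1 CPM in experiments 1, 2 and 4. At 120 h the sums were 154.7, 228.4, 539.9 and 381.4 CPM, so the library lowest in Mycl, that of experiment 1, was also lowest in these markers. Their part in the level of Mycl was not tested.

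Mycl had 14.2, 12.7, 29.1 and 21.01 CPM in 96 h + 2iL, and the neural markers of these libraries summed to 104.4, 170.5, 691.2 and 422.1 CPM. Mycl was higher by 1.06 ± 0.38 than in cells kept in 2iL (adjusted p = 0.026), in 4 of 4 experiments although the ranges overlapped through the 2iL library of experiment 3. This call was lost in 5 fits that left out 1 library, with adjusted p = 0.0721, 0.0752 and 0.0619 without the 2iL libraries of experiments 1, 2 and 4, and 0.137 and 0.0551 without the 96 h + 2iL libraries of experiments 3 and 4. Against 96 h the difference was 0.62 ± 0.37 (adjusted p = 0.337), and 1.23 (adjusted p = 0.0247) without the 96 h library of experiment 3. Against 120 h it was -0.47 ± 0.36 (adjusted p = 0.641), and the responses to 2iL at both starting points differed by 0.69 ± 0.59 (adjusted p = 0.724). In 48 h + 2iL, Mycl had 3.53, 8.38, 4.97 and 5.57 CPM, which overlapped with both 48 h (-0.07 ± 0.45, adjusted p = 0.945) and 2iL (-0.69 ± 0.42, adjusted p = 0.326).

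Myc, on chromosome 15 (61985391 to 61990374, plus strand), encodes c-MYC, a proto-oncogene product and a known target of both LIF-STAT3 and WNT signalling. It was near the limit of this depth, with 0 to 13 counts per library. In 2iL it had 2, 1, 1 and 1 counts, the lowest sum of all groups. It had 5, 6, 9 and 2 counts at 24 h and 3, 6, 2 and 2 at 48 h. Later it had 4, 3, 13 and 6 at 96 h and 4, 7, 8 and 8 at 120 h. With 2iL returned it had 3, 4, 11 and 0 counts in 48 h + 2iL and 5, 2, 9 and 9 in 96 h + 2iL. Pooled over a group and scaled by library size, the ratio to 2iL was 5.71 at 24 h (95% exact interval 2.11 to 19.3), 3.18 at 48 h (1.06 to 11.4), 4.87 at 96 h (1.84 to 16.2) and 5.20 at 120 h (1.97 to 17.3). It was 5.38 in 96 h + 2iL (2.02 to 18) and 3.57 in 48 h + 2iL (1.28 to 12.3). These intervals cover counting error only and rest on 5 counts in the group 2iL. Without the library of experiment 3, which held 11 of the 18 counts in 48 h + 2iL and 13 of the 26 at 96 h, the ratio was 1.90 in 48 h + 2iL and 3.22 at 96 h. In the edgeR fit without a filter, Myc had an adjusted p of 0.0636 at 24 h, 0.321 at 48 h, 0.0466 at 96 h, 0.0295 at 120 h, 0.308 in 48 h + 2iL and 0.0269 in 96 h + 2iL, each against 2iL. In the 6 comparisons that did not involve cells kept in 2iL, the intervals included 1. The ratio was 0.556 at 48 h against 24 h (0.258 to 1.15), 1.53 at 96 h against 48 h (0.760 to 3.25) and 1.07 at 120 h against 96 h (0.599 to 1.90). It was 1.12 in 48 h + 2iL against 48 h (0.520 to 2.49), 1.11 in 96 h + 2iL against 96 h (0.612 to 1.99) and 1.04 in 96 h + 2iL against 120 h (0.576 to 1.85).

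**Figure D2:**
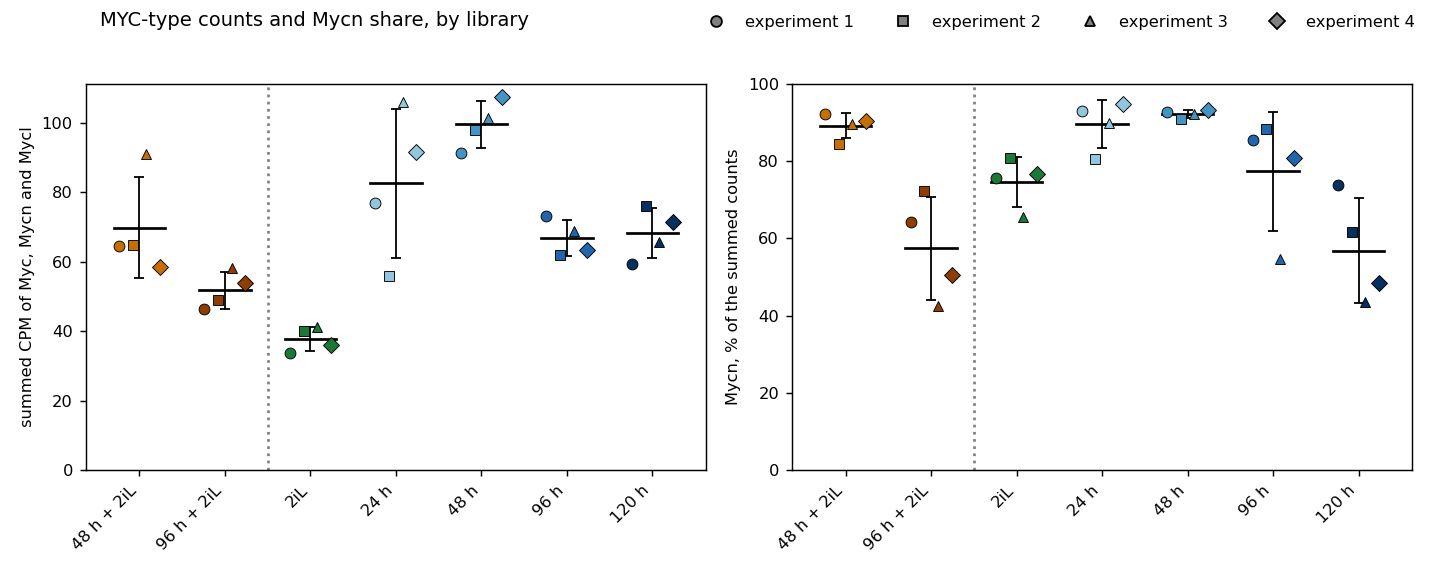
Left, summed CPM of Myc, Mycn and Mycl; right, the share of Mycn in their summed counts, in percent, for each library by group (x axis). Points are libraries by experiment, lines means and error bars SD (n = 4); the sum is highest at 48 h (99.6 CPM on average) and the Mycn share is lowest on average at 120 h and in 96 h + 2iL, at 56.9% and 57.4%.

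Mycn gave most of the summed counts of the 3 MYC-type genes in every group on average. In experiment 3 it gave fewer than Mycl at 120 h (43.5% against 51.0%) and in 96 h + 2iL (42.5% against 50%). The sum averaged 37.8 ± 3.49 CPM in 2iL, 82.6 ± 21.4 at 24 h, 99.6 ± 6.74 at 48 h, 66.8 ± 5.13 at 96 h and 68.2 ± 7.24 at 120 h (SD, n = 4). It was 69.7 ± 14.5 CPM in 48 h + 2iL and 51.8 ± 5.25 in 96 h + 2iL. In every group outside 2iL, all libraries were above the highest sum of 2iL, 41.2 CPM. Mycn supplied 74.6% ± 6.53 of these counts in 2iL, 89.6% ± 6.25 at 24 h, 92.3% ± 0.953 at 48 h, 77.4% ± 15.4 at 96 h and 56.9% ± 13.6 at 120 h. The share was 89.2% ± 3.30 in 48 h + 2iL and 57.4% ± 13.4 in 96 h + 2iL. Mycl made up 38.8% ± 12.4 at 120 h and 36.4% ± 10.5 in 96 h + 2iL, against 23.8% ± 6.80 in 2iL. These are shares of counts at transcript ends. Beyond which gene gave more counts, they are compared between groups only, and no test was made on them.

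Max, the shared partner of all these factors (chromosome 12, 76937269 to 76962201, minus strand), declined late. It had 51.5, 49.6, 59.5 and 55.4 CPM in 2iL, 42.0, 33.0, 40.8 and 39.1 CPM at 96 h, and 32.7, 33.1, 30.9 and 34.2 CPM at 120 h. It had 35.4, 27.5, 34.4 and 35.8 CPM in 96 h + 2iL. Each of the last 3 groups lay entirely below 2iL. Max fell by 0.72 ± 0.18 at 120 h against 2iL (adjusted p = 0.00104), and by 0.70 ± 0.18 in 96 h + 2iL against 2iL (adjusted p = 0.00181). At 96 h it fell by 0.48 ± 0.17 (adjusted p = 0.0262), a call lost on scaling by library totals (adjusted p = 0.0613), without the filter (adjusted p = 0.0737), without the 96 h library of experiment 2 (adjusted p = 0.0926) and without the 2iL library of experiment 3 (adjusted p = 0.0771). At 24 and 48 h the means were 52.2 ± 11.5 and 49.6 ± 10.2 CPM, and 48 h + 2iL averaged 43.6 ± 9.28 CPM (SD, n = 4). These 3 groups were not called against 2iL, with changes of -0.06, -0.13 and -0.31. Max in 96 h + 2iL differed by 0.02 ± 0.18 from 120 h (adjusted p = 0.979) and by -0.22 ± 0.18 from 96 h (adjusted p = 0.505), so no gain of Max on the return of 2iL was detected at this depth. Its other differences were not called: -0.07 ± 0.18 at 48 h against 24 h, -0.35 ± 0.18 at 96 h against 48 h, -0.24 ± 0.18 at 120 h against 96 h and -0.19 ± 0.18 in 48 h + 2iL against 48 h. The responses at both starting points differed by -0.04 ± 0.25.

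Mnt (chromosome 11, 74830920 to 74845725, plus strand), the corepressor-binding antagonist of MYC, changed least clearly. Its level was 32.7, 47.0, 60.2 and 62.2 CPM in 2iL, 39.3, 24.5, 40.4 and 35.1 CPM at 96 h, and 47.1, 30.2, 42.1 and 30.6 CPM at 120 h. The 2iL library of experiment 1 was lower than 3 of the 4 libraries at 96 h, and the groups overlapped. Mnt fell by 0.54 ± 0.21 at 96 h against 2iL (adjusted p = 0.0352). That call was lost on scaling by library totals (adjusted p = 0.0687), in a fit to these 2 groups alone (adjusted p = 0.0672), and without the 96 h libraries of experiments 2 (adjusted p = 0.152) or 4 (adjusted p = 0.0642) or the 2iL libraries of experiments 3 (adjusted p = 0.127) or 4 (adjusted p = 0.111). At 120 h the difference was -0.42 ± 0.21 (adjusted p = 0.0906). It became -0.59 (adjusted p = 0.0187) without the 2iL library of experiment 1 and -0.53 (adjusted p = 0.0494) without the 120 h library of experiment 1. Mnt had 54.8, 47.7, 46.02 and 50.1 CPM in 96 h + 2iL, all above the highest library at 96 h. This difference of 0.51 ± 0.21 was not called (adjusted p = 0.124), and 13.1% of tested genes showed no overlap in the same comparison. Against 2iL it was -0.03 ± 0.20 (adjusted p = 0.935). At 24 and 48 h Mnt averaged 44.5 ± 8.65 and 44.0 ± 6.41 CPM, neither called against 2iL (-0.19 ± 0.21 and -0.20 ± 0.21). Mnt was also not called at 48 h against 24 h (-0.01 ± 0.21), at 96 h against 48 h (-0.34 ± 0.21) or at 120 h against 96 h (0.12 ± 0.21). In 48 h + 2iL it differed by 0.10 ± 0.21 from 48 h and by -0.10 ± 0.20 from 2iL. It differed by 0.40 ± 0.21 in 96 h + 2iL from 120 h (adjusted p = 0.434), and the responses at both starting points by 0.41 ± 0.29 (adjusted p = 0.658).

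Mga (chromosome 2, 119897228 to 119969581, plus strand) had the most counts of the members, 239 to 610 per library, and so the smallest errors. MGA is unusual in carrying a T-box domain beside its MAX-binding domain. The level was 182, 248, 228 and 304 CPM in 2iL, 231, 254, 276 and 308 CPM at 24 h, and 217, 270, 221 and 250 CPM at 48 h. It was 172, 155, 170 and 139 CPM at 96 h and 140, 170, 146 and 172 CPM at 120 h. All 8 libraries at 96 and 120 h were below all 12 of the earlier groups. Mga fell by 0.60 ± 0.14 at 96 h (adjusted p = 0.000672) and by 0.61 ± 0.14 at 120 h (adjusted p = 0.000395) against 2iL, and by 0.59 ± 0.14 at 96 h against 48 h (adjusted p = 0.00199). From 96 to 120 h it differed by -0.02 ± 0.14 (adjusted p = 0.968). With 2iL returned, 96 h + 2iL had 213, 187, 151 and 148 CPM and 48 h + 2iL had 209, 241, 194 and 200 CPM. Mga in 96 h + 2iL stayed lower than in 2iL by a log2 fold change of -0.46 ± 0.14 (adjusted p = 0.00726), which was -0.34 (adjusted p = 0.052) without the 2iL library of experiment 4, and differed from 96 h by 0.14 ± 0.14 (adjusted p = 0.61). In 48 h + 2iL the differences were -0.19 ± 0.14 from 48 h (adjusted p = 0.416) and -0.19 ± 0.14 from 2iL (adjusted p = 0.426). Not called either were 24 h against 2iL (0.15 ± 0.14), 48 h against 2iL (-0.003 ± 0.14), 48 h against 24 h (-0.15 ± 0.14), 96 h + 2iL against 120 h (0.15 ± 0.14) and the difference of both responses (0.32 ± 0.19).

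**Figure D3:**
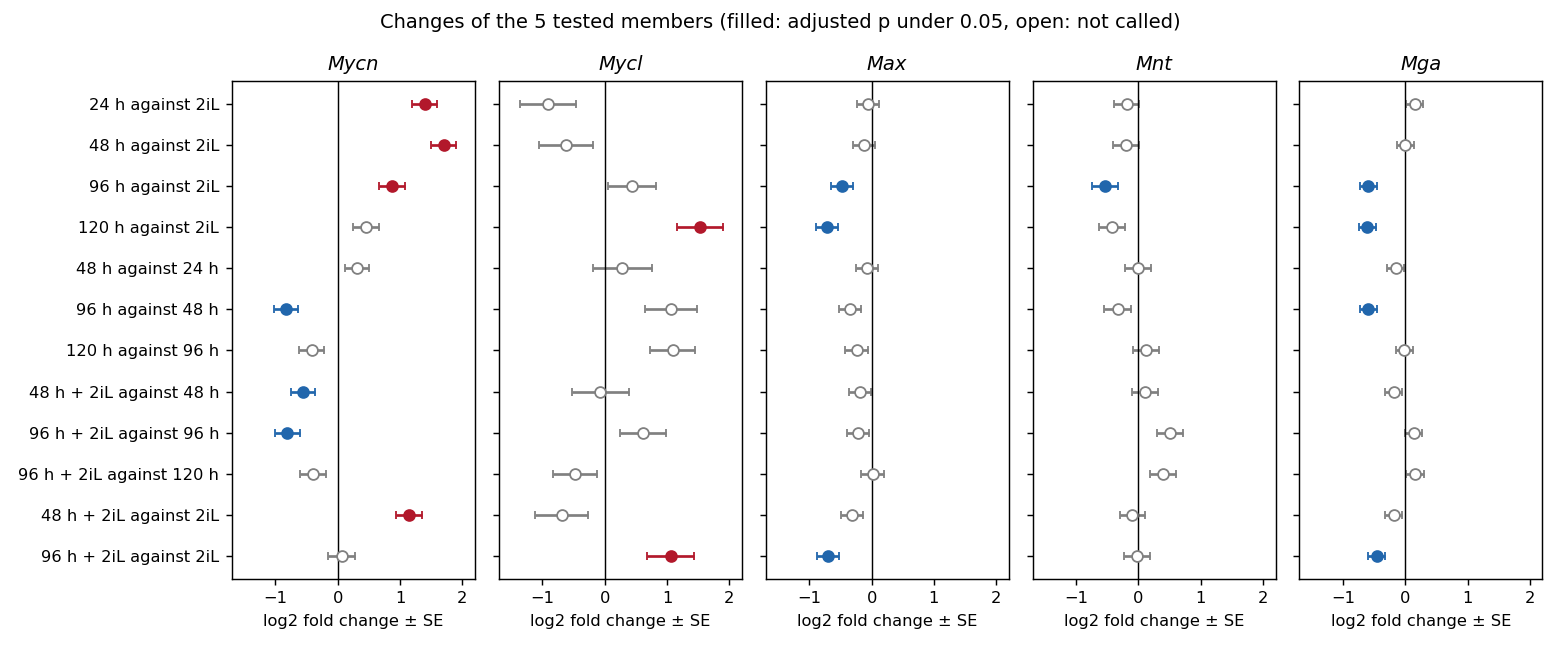
log2 fold changes ± SE (x axis) of the 5 tested members in 12 comparisons (y axis), each the first group over the second. Filled points have an adjusted p under 0.05 in edgeR's quasi-likelihood test (red higher, blue lower) and open points do not; Mycn is filled in 7 comparisons, and Max and Mga are filled only to the left of 0.

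The wider MAX and MLX network was read from 7 further genes, of which 6 passed the filter. At 96 h against 2iL 2 of them rose and 1 fell, beside 21.9% and 19.2% of all tested genes, and at 120 h again 2 rose and 1 fell, beside 24.6% and 22.6%. The number that fell at 120 h was 0 to 2 under the other settings and with 1 library left out. Mxd4, which encodes a MAX partner that represses MYC sites in differentiating cells, averaged 45.2 ± 6.49 CPM at 120 h and 12.96 ± 5.59 CPM in 2iL (SD, n = 4), a rise of 1.81 ± 0.27 (adjusted p = 1.23e-06). It was 34.96 ± 6.26 CPM in 96 h + 2iL and remained above 2iL by 1.43 ± 0.27 (adjusted p = 7.09e-05). Mxi1, another repressor of this kind, moved the opposite way: it averaged 12.2 ± 4.28 CPM at 96 h and 36.6 ± 5.57 CPM in 2iL, a fall of 1.58 ± 0.25 (adjusted p = 3.85e-06). At 120 h against 96 h Mxi1 then rose by 0.99 ± 0.25 (adjusted p = 0.0442), a call lost in a fit to these groups alone (adjusted p = 0.132) and without any 1 of the 4 libraries at 96 h or of those of experiments 2, 3 and 4 at 120 h (adjusted p = 0.0558 to 0.153). Mlxip, which encodes the glucose-sensing partner of MLX called MondoA, rose by 1.24 ± 0.39 at 96 h against 2iL (adjusted p = 0.0108).

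Among 17 cofactors and regulators of MYC stability, 3 rose and 3 fell at 48 h against 2iL, beside 14.6% and 13.2% of all tested genes. At 120 h 3 rose and 5 fell, beside 24.6% and 22.6%. The number that fell at 48 h was 5 on scaling by library totals and 2 to 5 with 1 library left out, lowest without the 2iL library of experiment 3. Usp28, a deubiquitinase that protects MYC proteins from degradation, was highest at 48 h on average. It averaged 27.8 ± 7.31 CPM in 2iL, 60.2 ± 12.2 at 24 h, 64.1 ± 11.5 at 48 h, 27.1 ± 4.10 at 96 h and 16.8 ± 3.66 at 120 h (SD, n = 4). It rose by 1.21 ± 0.21 at 48 h against 2iL (adjusted p = 4.42e-05) and fell by 1.37 ± 0.21 in 48 h + 2iL against 48 h (adjusted p = 2.08e-05). Wdr5, a chromatin protein that helps MYC to bind, fell by 1.00 ± 0.18 at 48 h (adjusted p = 7.99e-05) and by 1.46 ± 0.19 at 120 h (adjusted p = 8.60e-08). Bin1, which encodes a MYC-interacting adaptor, rose by 2.69 ± 0.41 at 120 h (adjusted p = 1.96e-06), all against 2iL.

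Of the 11 other subunits of PRC1.6, 2 rose and 1 fell at 96 h against 2iL, beside 21.9% and 19.2% of all tested genes, and 3 rose and 1 fell at 120 h, beside 24.6% and 22.6%. With 1 library left out, 1 to 3 rose at 96 h, lowest without the 2iL library of experiment 4, and 1 to 2 fell at 120 h. L3mbtl2, which reads histones for the complex, averaged 88.9 ± 15.5 CPM at 120 h and 193.9 ± 34.3 CPM in 2iL and fell by 1.12 ± 0.18 (adjusted p = 3.15e-06). Yaf2, a RING1-binding subunit shared with other Polycomb complexes, averaged 39.0 ± 11.2 CPM at 120 h and 10.6 ± 5.08 CPM in 2iL and rose by 1.90 ± 0.29 (adjusted p = 1.84e-06). Ring1 and E2f6 rose as well, by 2.02 ± 0.41 and 1.09 ± 0.33. Of 17 germ cell genes known to rise when MAX, MGA or PCGF6 is lost in mouse ES cells, 7 had enough counts to be tested. While Mga and Max were lower at 120 h than in 2iL, 4 of these 7 fell and 1 rose, beside 22.6% of all tested genes that fell and 24.6% that rose. The number that fell was 3 to 7 under the other settings. These settings did not all test the same 7 genes, since without the filter genes with fewer counts are also tested. At 96 h, where Mga and Max were also called lower, 4 of the 7 fell and 2 rose, beside 19.2% and 21.9%. Under the other settings 3 to 5 fell and 1 to 4 rose at 96 h, again not always out of the same 7 genes. Those that rose were Sycp3, by 2.09 ± 0.56 (adjusted p = 0.00291), and Tdrkh, by 3.77 ± 1.08 (adjusted p = 0.00537). A link of these genes to the levels of Mga or Max was not tested. Dazl, an RNA-binding protein of germ cells, averaged 0.768 ± 0.238 CPM at 120 h and 40.9 ± 18.4 CPM in 2iL, a fall of 5.64 ± 0.52 (adjusted p = 1.72e-10). Tdrkh, a piRNA pathway gene, was the one that rose at 120 h, to 10.98 ± 2.87 CPM, against 0.120 ± 0.241 CPM in 2iL. With so few counts in 1 group, Tdrkh and Dazl passed the filter through groups where they were higher. The direction of such genes is thus set in part by the filter. The numbers that rose and fell describe the 7 tested genes only, not all 17. Taf7l, a germ cell relative of a general transcription factor subunit, rose by 2.29 ± 0.53 at 48 h against 2iL (adjusted p = 0.00123), and fell by 2.02 ± 0.52 in 48 h + 2iL against 48 h (adjusted p = 0.00622).

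Classical MYC targets were read from 2 lists, chosen with earlier results of these data known, and no test was made on a list as a whole. The 25 genes of ribosome biogenesis were all tested. At 24 h against 2iL 4 rose and 0 fell, beside 7.68% and 8.29% of all tested genes, and at 48 h 12 rose and 0 fell, beside 14.6% of all tested genes that rose and 13.2% that fell at 48 h. At an unadjusted p under 0.05, 0 of the 25 were lower in either comparison, and DESeq2 also called 0 lower. At 96 h 3 rose and 4 fell, beside 21.9% and 19.2%, and at 120 h 0 rose and 11 fell, beside 24.6% and 22.6%. At an unadjusted p under 0.05 1 gene of the list was higher at 120 h, and DESeq2 called 0 higher. The median log2 fold change against 2iL was 0.20 at 24 h, 0.31 at 48 h, -0.02 at 96 h and -0.27 at 120 h, beside 0.01, 0.02, 0.02 and 0.01 over all tested genes. Under the other settings and with 1 library left out, the number that rose was 1 to 4 at 24 h and 8 to 14 at 48 h, and the number that fell at 120 h was 7 to 12. At 96 h 2 fell on scaling by library totals, and with 1 library left out 1 to 5 fell, lowest without the 2iL library of experiment 3, and 1 to 3 rose, lowest without that of experiment 1.

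Wdr74, a ribosome assembly factor, averaged 68.1 ± 5.75 CPM at 48 h and 41.4 ± 3.15 CPM in 2iL (SD, n = 4) and rose by 0.72 ± 0.18 (adjusted p = 0.00207). Ddx18 and Nolc1, a nucleolar helicase and a nucleolar phosphoprotein, rose by 0.64 ± 0.15 (adjusted p = 0.00118) and 0.54 ± 0.10 (adjusted p = 5.18e-05). At 120 h Tcof1, a cofactor of ribosomal RNA transcription, fell by 0.89 ± 0.10 against 2iL (adjusted p = 1.97e-08), and Ppan, needed for the large ribosomal subunit, fell by 0.79 ± 0.14 (adjusted p = 1.20e-05). At 96 h against 48 h, 12 of the 25 fell and 0 rose, beside 9.93% and 11.5% of all tested genes. At an unadjusted p under 0.05 0 of them were higher, and DESeq2 called 0 higher. The number that fell was 9 to 15 under the other settings and with 1 library left out. A link to Mycn, which also fell in this comparison, was not tested. In 48 h + 2iL against 48 h, 4 fell (Wdr74, Ppan, Nop56 and Ddx21), beside 7.67% of genes that fell and 7.24% that rose. Their count was 1 to 8 under the other settings and 2 to 5 with 1 library left out. Wdr74 in 48 h + 2iL averaged 41.2 ± 1.603 CPM. In 96 h + 2iL against 96 h the 1 gene that fell was Ncl (-0.35 ± 0.10, adjusted p = 0.0287), which encodes nucleolin, beside 5.23% of genes that fell and 4.02% that rose.

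**Figure D4:**
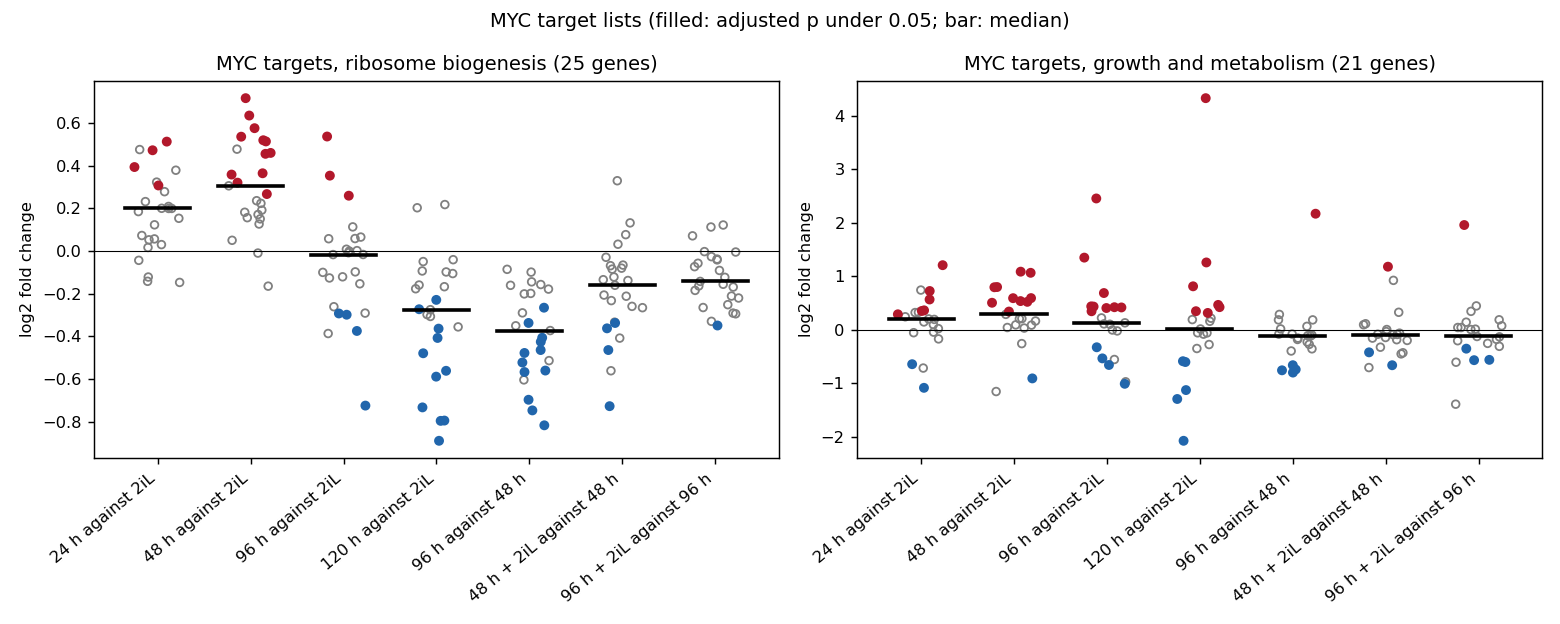
log2 fold changes (y axis) of the genes of both MYC target lists in 7 comparisons (x axis), each the first group over the second. Points are genes, filled where the adjusted p was under 0.05 (red higher, blue lower), and horizontal bars are list medians; in the ribosome biogenesis list the median is 0.31 at 48 h against 2iL and -0.37 at 96 h against 48 h.

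The 21 targets of growth and metabolism did not move as 1 group. At 48 h against 2iL 10 rose and 1 fell, beside 14.6% and 13.2% of all tested genes, and 2 fell on scaling by library totals. At 120 h 7 rose and 5 fell, beside 24.6% and 22.6%. Srm, which makes the polyamine spermidine, averaged 453 ± 21.1 CPM at 48 h and 260.5 ± 52.0 CPM in 2iL, and rose by 0.80 ± 0.13 (adjusted p = 1.85e-05). It fell by 0.80 ± 0.13 at 96 h against 48 h (adjusted p = 3.91e-05), by 0.67 ± 0.13 in 48 h + 2iL against 48 h (adjusted p = 0.000459) and by 0.57 ± 0.13 in 96 h + 2iL against 96 h (adjusted p = 0.00534). Odc1, the first enzyme of polyamine synthesis, rose by 1.20 ± 0.18 at 24 h (adjusted p = 7.76e-06) and was still higher at 120 h, by 0.81 ± 0.18 (adjusted p = 0.000282), both against 2iL. Tfrc, the transferrin receptor, was the 1 gene that fell at 48 h: it averaged 73.6 ± 6.22 CPM at 48 h and 138.4 ± 35.6 CPM in 2iL, a fall of 0.91 ± 0.17 (adjusted p = 7.48e-05). It rose by 1.18 ± 0.17 in 48 h + 2iL against 48 h (adjusted p = 4.45e-06). Cad, which starts pyrimidine synthesis, fell by 0.65 ± 0.14 at 24 h (adjusted p = 0.00127) and by 0.59 ± 0.14 at 120 h (adjusted p = 0.000706), and Tert, the telomerase catalytic subunit, fell by 2.08 ± 0.48 at 120 h (adjusted p = 0.000543), each against 2iL. Ccnd2, a G1 cyclin, rose by 4.33 ± 0.45 at 120 h against 2iL (adjusted p = 1.84e-09).

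Readouts of the pathways that 2iL acts on are given as a check of its removal and return. Of 11 such genes, 4 rose and 6 fell at 48 h against 2iL, beside 14.6% and 13.2% of all tested genes. In 48 h + 2iL against 48 h 4 rose and 3 fell, beside 7.24% and 7.67%, and in 96 h + 2iL against 96 h 5 rose and 3 fell, beside 4.02% and 5.23%. Sp5, a WNT target, averaged 172.2 ± 43.2 CPM in 48 h + 2iL and 1.85 ± 0.867 CPM at 48 h, and 132.5 ± 47.3 CPM in 96 h + 2iL and 10.3 ± 15.7 CPM at 96 h (SD, n = 4). Bcl3, a LIF-STAT3 target, averaged 67.7 ± 14.4 CPM in 48 h + 2iL and 11.7 ± 4.09 CPM at 48 h. In 96 h + 2iL it averaged 16.04 ± 9.62 CPM, against 3.01 ± 2.27 CPM at 96 h and 92.4 ± 6.86 CPM in 2iL. Dusp6, an ERK feedback gene, averaged 7.19 ± 1.51 CPM in 48 h + 2iL and 41.1 ± 7.10 CPM at 48 h. It averaged 6.07 ± 2.98 CPM in 96 h + 2iL and 45.8 ± 8.28 CPM at 96 h. Egr1, also induced by ERK signalling, fell by 3.88 ± 0.67 at 24 h against 2iL (adjusted p = 7.50e-05) and was still lower at 48 h (adjusted p = 2.04e-05), opposite to Dusp6. It was not called on the return of 2iL after 48 or 96 h. Lef1, a WNT pathway transcription factor, rose by 1.39 ± 0.23 at 48 h against 2iL (adjusted p = 1.84e-05), opposite to Sp5, and Socs3, a LIF-STAT3 target, and Tcf7 were not called in either return comparison.

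For each tested member, the 3 genes with the highest and the 1 with the lowest Pearson correlation over the 28 libraries were read as a description, since the libraries share groups, experiments and depth. Pseudogenes were left out of this ranking, as were symbols containing Rik or starting with Gm and a digit, mt-, Rps, Rpl or ENSMUSG. Genes of ribosomal proteins were thus not ranked. Mycn was most like Rpf2 (r = 0.905), Slc7a7 (r = 0.895) and Nol10 (r = 0.887) and least like Cadm4 (r = -0.879). Rpf2 and Nol10 encode ribosome assembly factors, and Slc7a7 an amino acid transporter subunit. Mycl was most like Nr2f1 and Dmbx1 (r = 0.909 each) and Otx1 (r = 0.905), transcription factors of the developing brain, and least like Hspa9, a mitochondrial chaperone (r = -0.922). Nr2f1 averaged 65.7 ± 32.7 CPM at 120 h, against 3.97 ± 1.02 CPM in 2iL. Mga was most like Ncoa3 (r = 0.898) and Rest (r = 0.887), the repressor of neuronal genes, and least like Sc5d (r = -0.886). Max was most like Zfp977, Mtf1 (r = 0.820 each) and Dcaf12 (r = 0.814), and least like Rala (r = -0.854). Mnt had the weakest likeness, to Dcp2 (r = 0.719), Ccser2 (r = 0.714) and AI606181 (r = 0.649), with Ccdc92 at the other end (r = -0.718). Among the members themselves, Mycn and Mycl had r = -0.679, Mycl and Max -0.639, Mycl and Mga -0.612, and Max and Mga 0.595.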

How the data were processed

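RNA was measured by 3′ digital gene expression in 28 libraries of E14 mouse ES cells, 4 in each of 7 groups. Per the submitters' processing notes, bcl2fastq, STAR 2.6.0a, HTSeq and the mm10 build were used, and neither their role nor their order is given. Each library came with a deposited table of unnormalized counts over 31053 genes, called unique in its name; whether this refers to alignment or to molecules is not stated. The deposited series table holds CPM for 30386 genes, and in 28 of 28 columns it equalled the counts scaled to a common total within a tolerance of 1e-06. CPM was used for this check and for symbols, and counts for every test. No pair of libraries was identical. Reads listed as not uniquely aligned made up 52.3% to 60.1% per library, reads in no feature 6.68% to 8.58% and ambiguous reads 0.183% to 0.227%, and all were left out.

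Genes were filtered with filterByExpr by group (minimum count 10, minimum total 15), scaled by TMM and fitted by quasi-likelihood with 1 coefficient for each group (edgeR 4.0.16, R 4.3.3). The 12 differences between groups and the difference between both responses to 2iL were tested two-sided and adjusted by Benjamini-Hochberg over 11080 genes. Each SE is the size of the change over the root of its F statistic. The fit was also run on simulated data, with an outcome that is not reported here and is not used as support. Alternatives were DESeq2 1.42.0, its size factors, library totals, no filter, only the groups compared, the experiment as a block, and each library left out. The experiment number comes from the sample titles. Over 84 pairs of libraries with the same number, the deviations from group means correlated with a median r of 0.068 (-0.0417 to 0.419), against -0.0272 over 252 other pairs.

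All 6 members were to be named in every comparison, with the genes most and least like them (log2 CPM, prior count 2) and listed genes with their values; some results under this rule are not reported here. The members and the 13 lists were chosen with earlier results of these data known. Ratios of Myc are pooled counts with exact conditional 95% intervals. Positions are from GENCODE M21, similarity of transcript ends from BLAST 2.17.0, and promoters from RefSeq GRCm38.p6.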

Additional observations from a re-analysis of the deposited data

Results flagged for a closer look

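Of 42 groups of 4 libraries, 3 held a library set apart from the others by a gap beyond Dixon's 95% critical value, and chance gives about 1 in 20. Myc at 120 h was low in experiment 1, at 1.48 CPM (4 counts), against 3.46 to 3.58 CPM in experiments 2 to 4. Mycl in 2iL was high in experiment 3, at 13.8 CPM, against 7.22 to 7.91 CPM in the others. Mnt in 48 h + 2iL was low in experiment 3, at 32.3 CPM, against 51.4 to 52.9 CPM in the others.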

How the results depend on the processing

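No called change of a member changed sign in any alternative run. Of 65 log2 fold changes of members, 13 changed sign in at least 1 alternative, and 0 of these were called. Scaling by library totals gave 0.0121 for Mnt at 48 h against 24 h, 0.0457 for Mga at 120 h against 96 h, -0.0344 for Max in 96 h + 2iL against 120 h and 0.0398 for Mnt in 96 h + 2iL against 2iL. With 1 library left out, Mycl ran over -0.18 to 0.74 at 96 h against 2iL and -0.32 to 0.10 in 48 h + 2iL against 48 h, and Mycn over -0.0345 to 0.14 in 96 h + 2iL against 2iL. Max ran over -0.20 to 0.0581 at 24 h against 2iL, -0.23 to 0.0709 at 48 h against 24 h, -0.0131 to 0.10 in 96 h + 2iL against 120 h and -0.19 to 0.0485 for the difference between responses. Mga ran over -0.13 to 0.11 at 48 h against 2iL and -0.0658 to 0.0462 at 120 h against 96 h. Mnt ran over -0.12 to 0.11 at 48 h against 24 h, -0.0094 to 0.21 at 120 h against 96 h, -0.26 to 0.0497 in 48 h + 2iL against 2iL and -0.19 to 0.0865 in 96 h + 2iL against 2iL. The number of members called moved by over 1.5 times on scaling by library totals at 96 h against 2iL (2 in place of 4) and in 48 h + 2iL against 48 h (0 in place of 1), and without the filter in 48 h + 2iL against 48 h (0) and at 120 h against 96 h (1 in place of 0). The experiment as a replicate block gave 1 member at 120 h against 96 h, and 580 genes in place of 126. It gave 194 genes in place of 102 for the difference between the responses to 2iL, and beside Mycl at 96 h against 48 h and at 120 h against 96 h it changed no other call of a member. Genes called at 120 h against 96 h were 653 without the filter, 0 with only the groups compared (edgeR; 1684 at an unadjusted p under 0.05) and 284 with DESeq2. For 96 h + 2iL against 120 h (291 genes) they were 493 without the filter and 115 with only the groups compared, and for the difference between responses 321 without the filter and 175 with DESeq2. The cause was not tested.

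Leaving out 1 library at a time gave 1 to 2 members at 24 h, 2 to 5 at 96 h and 3 to 5 at 120 h against 2iL, 0 to 1 at 120 h against 96 h, 0 to 1 in 48 h + 2iL against 48 h and 1 to 2 in 96 h + 2iL against 96 h. In 25 of these 28 fits Myc passed the filter, so the numbers of members above include its calls. Its highest levels were 5.65 CPM at 24 h, 5.64 at 96 h and 5.56 in 96 h + 2iL. Passing the filter may rest on these libraries, in groups compared with 2iL. The fits also share most libraries and at most 5 counts of Myc in 2iL. Calls of Myc in them are therefore not read as support for a change. Genes called were 424 to 794 at 48 h against 24 h (728), 0 to 686 at 120 h against 96 h, 658 to 1323 in 96 h + 2iL against 96 h (1024), 158 to 450 in 96 h + 2iL against 120 h, 759 to 1380 in 48 h + 2iL against 2iL (1288) and 49 to 136 for the difference between responses.

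Scaling by library totals moved the median of all genes by 0.121 at 120 h against 2iL. It moved the share of calls that were higher to 64.8% in place of 53.7% at 96 h against 48 h, to 66.4% in place of 52.4% at 120 h against 96 h, and to 38.6% in place of 49.0% for the difference between responses. Depth limits Myc and Mycl above all. Counts of transcript ends say nothing of protein or of its stability.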
